A study of Homo sapiens with 4 samples.

Results

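The genes described here are the immediate early genes and the feedback regulators of ERK signalling, 41 genes chosen by name from the 62655 gene IDs of a raw count table. They comprise the AP-1 subunits of the FOS and JUN families, the EGR, KLF and NR4A transcription factors, several smaller immediate early genes, the DUSP, SPRY and SPRED inhibitors, the ETV factors, the ZFP36 mRNA-decay proteins, the secreted CCN proteins and the ID proteins. The names matched 1 gene ID each. RNA came from 4 samples of Hep G2, a human hepatocellular line in wide use as a stand-in for hepatocytes. The mimic group had 2 libraries, from cells transfected with an oligonucleotide copy of LysTTT-5'tRF, which is cut from the front of a lysine tRNA (anticodon TTT). The control group had 2 libraries, from cells that received a negative control oligonucleotide. Both groups were plated at 150000 cells per ml, moved to medium rich in oleic acid after 24 h, transfected with HiPerFect after another 24 h, and harvested 24 h later, so lipid loading and transfection were common to both. Neither an untransfected nor a lipid-free group was analysed here. The comparison asks which transcripts of this gene set differed when the fragment was added to fat-laden cells.

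Immediate early genes are transcribed within minutes of a growth factor, stress or cytokine signal, without new protein synthesis, and their mRNAs are short-lived. ERK, the last kinase of the cascade that begins with RAS, activates the ternary complex factors that sit with SRF on the promoters of FOS and EGR1. The same signal induces its own brakes, since DUSP phosphatases dephosphorylate ERK or its relatives and SPRY and SPRED proteins act upstream near RAS and RAF. In liver these genes are known for their burst after partial removal of the organ and after handling of isolated hepatocytes.

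Reads assigned to genes ranged from 15430539 to 18961222 per library, and levels are in CPM, the count per 1000000 reads after TMM scaling. Libraries carry the numbers of their columns. The control columns bear the abbreviation for the negative control, whereas the other columns bear an unexplained number and were assigned to the mimic because no other treatment remained. Were that reading wrong, no direction given here would hold. The 12 hepatocyte markers were all tested, and ALB, the albumin gene, passed (log2 fold change 0.23, edgeR, Benjamini-Hochberg adjusted p = 0.0109). They had summed levels of 52084 and 51845 CPM with the mimic, against 50960 and 49152 CPM in the control. PTPRC, CD163, MARCO and C1QA of the macrophage list, COL1A2, DCN and LUM of the fibroblast list and KDR, TEK and CLEC4M of the endothelial list had no read in any library, while LYZ of the macrophage list had 1619.9 and 1529 CPM with the mimic, against 1477 and 1474 CPM in the control. Other markers on these lists were measured. The 7 fibroblast markers summed to 35.3 CPM in each mimic library, against 30.3 and 35.1 CPM in the control, mostly from PDGFRB and ACTA2. The 6 endothelial markers summed to 9.54 and 11.5 CPM with the mimic, against 9.99 and 9.31 CPM in the control, mostly from PECAM1. VWF of that list had 0.914 and 1.17 CPM with the mimic, against 0.416 and 0.435 CPM in the control (log2 fold change 1.30, edgeR, Benjamini-Hochberg adjusted p = 0.484). Nothing in the labels says whether the libraries of a group came from separate cultures, and the p-values may thus reflect technical spread alone.

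Of the 36 tested members 0 passed the quasi-likelihood F test of edgeR at 0.05 after Benjamini-Hochberg adjustment over 14464 genes. Of all genes tested 0.346% passed in either direction, 0.277% higher and 0.0691% lower with the mimic. The smallest adjusted p of a member was 0.182. DESeq2, which passed 0.207% of all genes, and limma voom, which passed 0.346%, also called 0 members. DESeq2 gave an adjusted p to only 5210 genes and 21 members. JUNB, FOS and EGR1 were not among these and could not be called by it. At an unadjusted edgeR p under 0.05 there were 6 members with higher values with the mimic, against 5.06% of all genes tested, and 1 with lower values, against 4.37%. The 6 were JUNB, IER3, ZFP36L2, JUN, DUSP1 and FOS, and the 1 was CCN2. At that level DESeq2 held 3 members, against 3.88% of all genes tested, and limma voom 7, against 9.44%. The median log2 fold change over the tested members was 0.03, beside 0.00 over all genes tested, and single values ran from -0.18 to 0.53. It was above 0 in 21 members, against 50.4% of all genes tested, and below 0 in 15. Both mimic values lay above both control values in 8 members, against 19.8% of all genes tested, and below them in 5, against 19.3%. In the other 23 the groups overlapped. For 32 of the 36 the 95% interval of the fold change stayed within 1.5-fold in either direction. In bulk RNA, a smaller share of responding cells and less RNA per cell cannot be told apart.

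**Figure D1:**
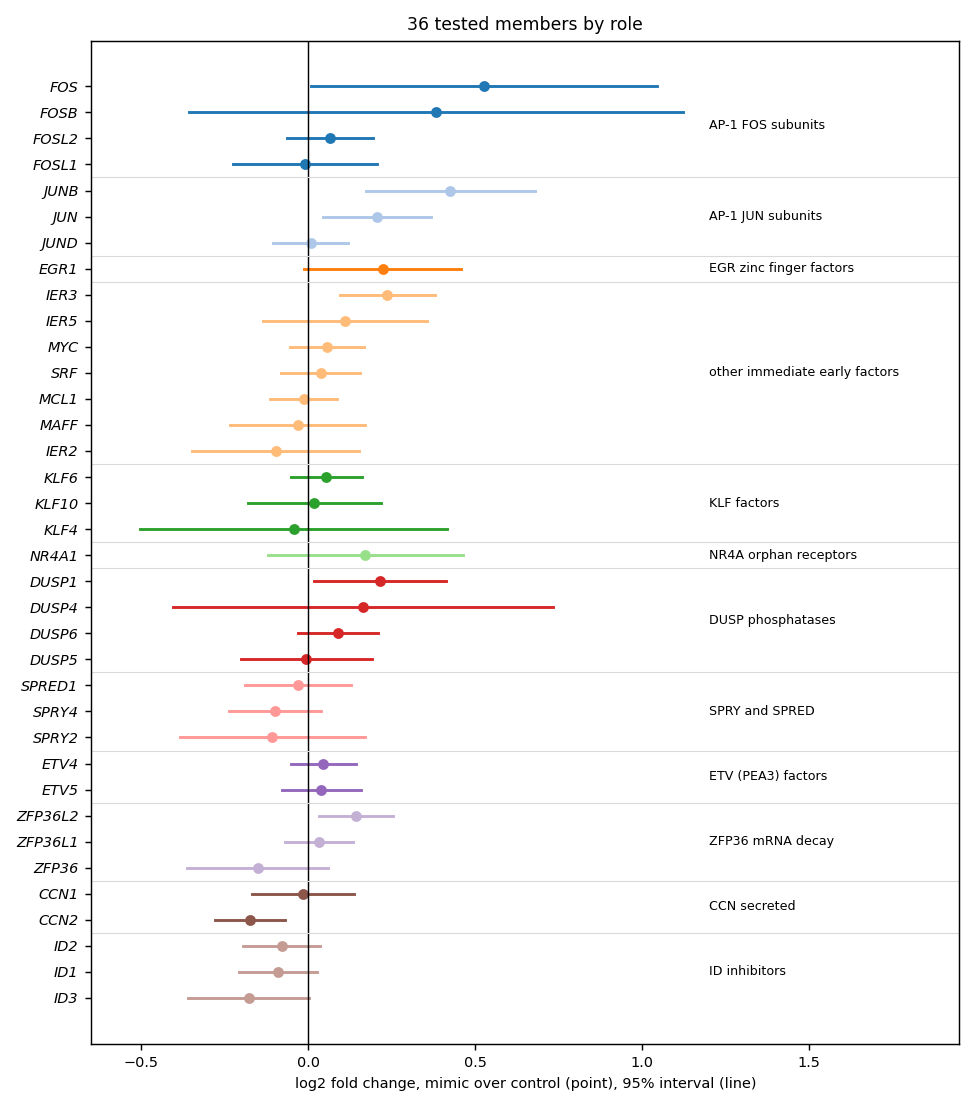
Log2 fold change of mimic over control (horizontal axis, points) with its 95% interval (lines) for the 36 tested members, grouped by role down the page. Intervals of 6 members lie wholly above 0 and that of CCN2 wholly below it, and no member passed after adjustment over 14464 genes.

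The AP-1 transcription factor is a dimer of a FOS and a JUN protein. FOS (ENSG00000170345, chr14:75278774-75282230, plus strand; GENCODE 29 on GRCh38), its classical inducible subunit, had 24.6 and 12.9 CPM in mimic libraries 1 and 2, against 17.7 and 7.58 CPM in control libraries 1 and 2. Mimic library 1 was highest and control library 2 lowest, and the groups overlapped because mimic library 2 lay below control library 1. The FOS means were 18.8 ± 8.26 CPM with the mimic, against 12.6 ± 7.13 CPM in the control (SD, n = 2 each). Its log2 fold change was 0.53 with a 95% interval of 0.01 to 1.05 (edgeR, Benjamini-Hochberg adjusted p = 0.52). This was the most positive value of any tested member, yet the log2 difference between mimic libraries 1 and 2 was 0.93 and that between control libraries 1 and 2 was 1.22. FOSB, a FOS relative of similar inducibility, ranged over 2.77 to 4.18 CPM with the mimic, against 1.30 to 3.86 CPM in the control. FOSL1 and FOSL2, the FOS-related antigens that appear later in a response, had log2 fold changes of -0.01 and 0.07.

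JUNB (ENSG00000171223, chr19:12791496-12793315, plus strand), the JUN family member often set against JUN in growth control, had the smallest p of the set. It stood at 27.2 and 22.8 CPM in the mimic libraries, against 20.3 and 16.6 CPM in the control libraries. Both mimic values were higher than both control values. The log2 fold change of JUNB was 0.43 (SE 0.12), with a 95% interval of 0.17 to 0.68 (edgeR, Benjamini-Hochberg adjusted p = 0.182). JUN itself had 153 and 132 CPM with the mimic, against 137 and 110.0 CPM in the control. Its groups overlapped, and its log2 fold change of 0.21 had a 95% interval of 0.04 to 0.37 (edgeR, Benjamini-Hochberg adjusted p = 0.39). JUND, the constitutive JUN protein, was level across the 4 libraries at 146 and 150.3 CPM with the mimic, against 147 and 148 CPM in the control. In JUNB 14.2% of the exon sequence lies opposite HOOK2, which had 9.41 and 12.4 CPM with the mimic against 12.8 and 10.7 CPM in the control. The kit marks strand, but whether the counting used it is not stated in the labels.

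IER3 (ENSG00000137331, chr6:30743199-30744554, minus strand), a stress-induced protein tied to cell survival and ERK activity, had 212 and 187 CPM in the mimic libraries and 183 and 154 CPM in the control libraries. Its mimic values were higher than both control values, although mimic library 2 and control library 1 were nearly level. The IER3 log2 fold change was 0.24 with a 95% interval of 0.10 to 0.38 (edgeR, Benjamini-Hochberg adjusted p = 0.185). An antisense gene faces 26.5% of its exon sequence and held at most 6 reads in a library. EGR1, a zinc finger factor that ERK induces through SRF, had 26.7 and 23.1 CPM with the mimic, against 22.6 and 19.8 CPM in the control. These groups did not overlap, and the log2 fold change of 0.22 had a 95% interval of -0.01 to 0.46 (edgeR, Benjamini-Hochberg adjusted p = 0.561). Of the other immediate early genes, the growth factor-induced MYC, the short-lived survival protein MCL1 and SRF itself had log2 fold changes of 0.06, -0.01 and 0.04. The nuclear proteins IER2 and IER5 had -0.10 and 0.11, and the small MAF protein MAFF had -0.03. The 95% intervals of all 6 held 0.

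In EGR2, EGR3, KLF2, NR4A2 and NR4A3 the reads were too few for the filter on low counts, and these 5 members were not tested. EGR2, a factor best known from nerve myelination, had 7 and 8 reads in the mimic libraries and 3 and 1 in the control libraries. EGR3 had 7 and 8 reads with the mimic and 12 and 6 in the control. KLF2, which marks flow-exposed endothelium, had 5 and 4 reads with the mimic and 1 and 0 in the control. The nuclear orphan receptor NR4A2 had 9 and 1 reads with the mimic and 5 and 1 in the control, and NR4A3 had 6 and 10 against 6 and 0. Their tested relative NR4A1, also called Nur77, had 26.3 and 21.1 CPM with the mimic, against 24.7 and 16.8 CPM in the control, with overlapping groups. The Kruppel-like zinc finger factors KLF4, KLF6 and KLF10 had log2 fold changes of -0.04, 0.05 and 0.02, each with an interval that held 0.

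Among the ERK brakes, DUSP1 is a nuclear phosphatase of p38, JNK and ERK that is itself an immediate early gene. It had 76.5 and 65.4 CPM in the mimic libraries, against 69.2 and 52.4 CPM in the control libraries, in the same order of libraries as FOS and JUN. The DUSP1 log2 fold change was 0.21 with a 95% interval of 0.02 to 0.41 (edgeR, Benjamini-Hochberg adjusted p = 0.49). DUSP6, the cytoplasmic ERK-specific phosphatase and a common readout of ERK activity, had 118 CPM in each mimic library and 111 CPM in each control library. Those groups did not overlap, and the log2 fold change of 0.09 had a 95% interval of -0.03 to 0.21. An antisense gene faces 40.5% of the DUSP6 exon sequence and held between 8 and 11 reads in each library. DUSP5, a nuclear ERK phosphatase, stood at -0.01. DUSP4 had 3.27 and 5.32 CPM with the mimic, against 3.15 and 4.72 CPM in the control, so its values differed more between libraries of a group than between groups.

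The 3 SPRY and SPRED members gave log2 fold changes below 0. Of their relatives outside the set, SPRY1 stood at -0.13, SPRED2 at 0.02 and SPRED3 at 0.19. SPRY4 had 112 and 98.1 CPM with the mimic, against 108 and 116 CPM in the control, with overlapping groups and a log2 fold change of -0.10 (95% interval -0.24 to 0.04). SPRY2 stood at -0.11 and SPRED1 at -0.03. ETV4 and ETV5, PEA3-type factors whose transcription follows ERK activity, had log2 fold changes of 0.05 and 0.04, with upper 95% limits of 0.14 and 0.16. The ERK output genes DUSP6, SPRY2, SPRY4, ETV4 and ETV5 thus lay on both sides of 0, and none passed edgeR's test.

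ZFP36 proteins bind AU-rich elements and direct the decay of short-lived mRNAs, immediate early transcripts among them. ZFP36L2 had 208 and 204 CPM with the mimic, against 194 and 179 CPM in the control, without overlap. Its log2 fold change was 0.14 with a 95% interval of 0.03 to 0.25 (edgeR, Benjamini-Hochberg adjusted p = 0.37). ZFP36 itself, also known as tristetraprolin, lay the other way at 23.6 and 23.3 CPM with the mimic, against 25.8 and 26.2 CPM in the control (log2 fold change -0.15, 95% interval -0.36 to 0.06). ZFP36L1 was at 0.03.

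CCN2 (ENSG00000118523, chr6:131948176-131951373, minus strand), the secreted connective tissue growth factor and a target of YAP and TGF-beta signalling, was the member with lower values and the smallest p. It had 422 and 379 CPM in the mimic libraries, against 462 and 441 CPM in the control libraries, and both mimic values were below both control values. The CCN2 means were 400.1 ± 30.5 CPM with the mimic, against 451 ± 15.2 CPM in the control (SD, n = 2 each). Its log2 fold change of -0.18 (SE 0.05) had a 95% interval of -0.28 to -0.07 (edgeR, Benjamini-Hochberg adjusted p = 0.185). CCN1, its close relative, had 142 and 114 CPM with the mimic, against 132 and 126 CPM in the control, and its log2 fold change was -0.01.

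The ID proteins, which lack a DNA-binding region and sequester basic helix-loop-helix factors, are induced by BMP signalling as well as by serum. Their log2 fold changes were all below 0. ID3 had 34.7 and 33.3 CPM with the mimic, against 37.7 and 39.2 CPM in the control, without overlap (log2 fold change -0.18, 95% interval -0.36 to 0.00). ID2 had 133 and 135 CPM with the mimic, against 142 CPM in each control library (-0.08, -0.19 to 0.03). ID1 had 165 and 173 CPM with the mimic, against 172 and 187 CPM in the control, where the groups overlapped (-0.09, -0.21 to 0.03). None of the 3 passed edgeR's test.

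**Figure D2:**
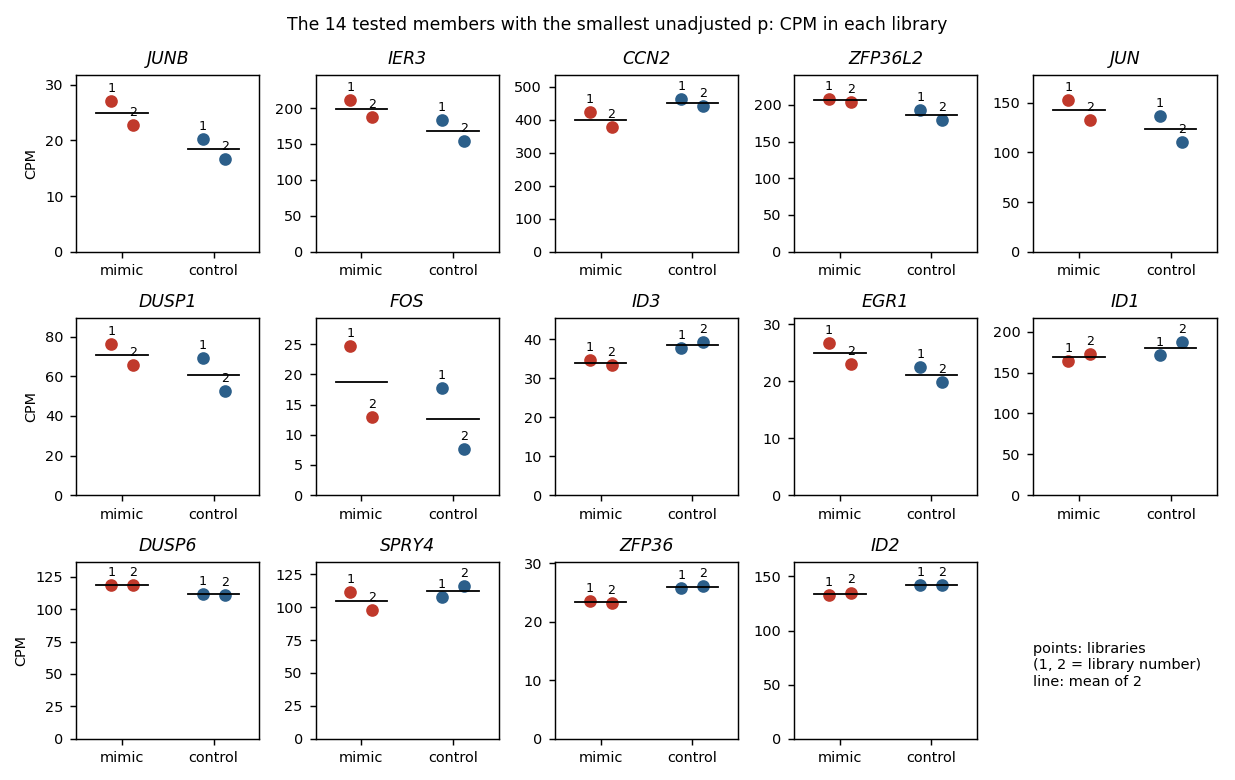
Counts per 1000000 reads (vertical axis, from 0) in each library for the 14 tested members with the smallest unadjusted p, mimic at the left and control at the right of each panel, with library numbers beside the points and lines at the group means. FOS spreads over 12.9 to 24.6 CPM with the mimic, against 7.58 to 17.7 CPM in the control, while the values of JUNB, IER3 and CCN2 do not overlap between groups.

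A shared order of libraries ran through several of the inducible genes. In 8 of the 36 tested members the values descended from mimic library 1 through control library 1 and mimic library 2 to control library 2, against 5.38% of all genes tested. These were FOS, FOSB, FOSL2, JUN, MYC, KLF6, NR4A1 and DUSP1, and the order was noticed in FOS before it was counted. It places library 1 above library 2 within each group. Some steps were near ties. In KLF6 control library 1, mimic library 2 and control library 2 had 225.5, 225.3 and 224.9 CPM. In FOSL2 mimic library 1, control library 1 and mimic library 2 had 114.2, 112.9 and 111.3 CPM. Mimic library 1 held the highest value in 19 of the 36, against 26.8% of all genes tested, and control library 2 the lowest in 19, against 29% of all genes. The mean log2 deviation of the 4 FOS family genes from their mean over all libraries was 0.37 and -0.05 in mimic libraries 1 and 2, and 0.21 and -0.53 in control libraries 1 and 2. For the 3 SPRY and SPRED genes it was 0.03 and -0.11 with the mimic and 0.03 and 0.05 in the control, and for the 3 ID genes -0.06 and -0.05 with the mimic and 0.03 and 0.09 in the control. In 28 of 36 members the larger difference between libraries of a group exceeded the log2 fold change, as it did in 74.2% of all genes tested.

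**Figure D3:**
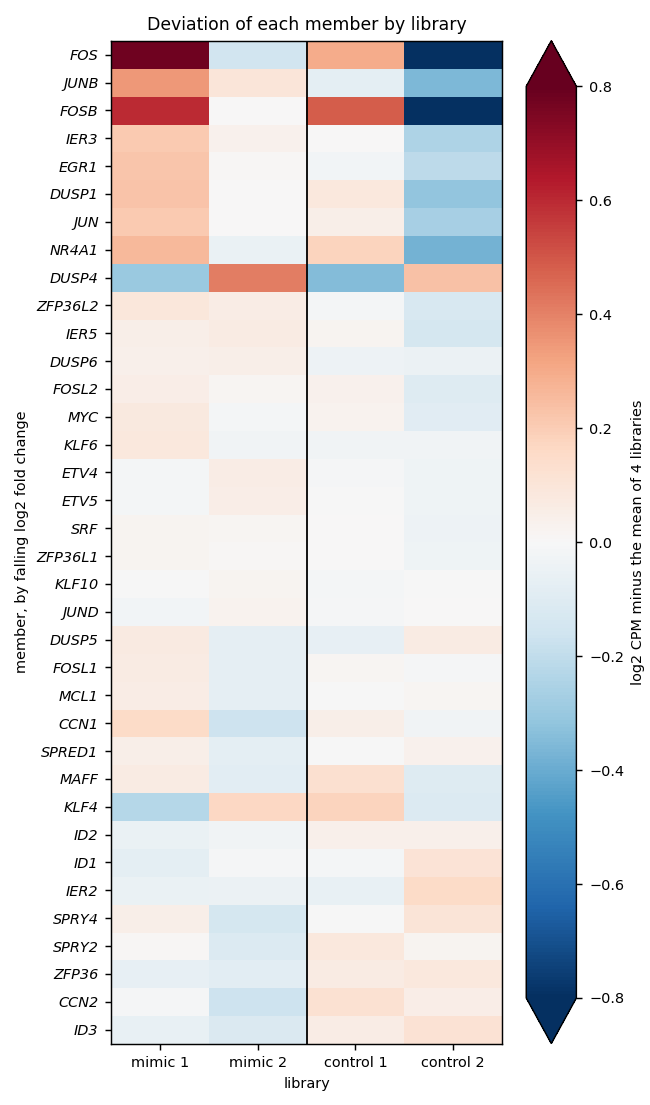
Log2 CPM of each tested member minus its mean over the 4 libraries (colour, red above and blue below), with members down the page by falling log2 fold change and the mimic libraries left of the control libraries. FOS, FOSB, NR4A1 and DUSP1 are highest in mimic library 1 and lowest in control library 2, with control library 1 above mimic library 2.

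Heat shock genes, which answer protein damage and other stress, were set beside the members. Of 10 tested, 5 had the library order of FOS, against 5.38% of all genes tested. In HSPD1 control library 1 and mimic library 2 were nearly level at 1851 and 1846 CPM. HSP90AA1 had 1451 and 1426 CPM in those libraries. HSPA1B, an inducible HSP70, had 124 and 75.1 CPM with the mimic, against 91.4 and 58.4 CPM in the control. The co-chaperone DNAJB1 had 334 and 236 CPM with the mimic, against 281 and 204 CPM in the control. HSPE1 lay the other way, at 73.9 and 70.2 CPM with the mimic, against 79.0 and 76.9 CPM in the control. HSPB1 and BAG3 had log2 fold changes of 0.006 and -0.003. HSPH1, a nucleotide exchange factor for HSP70, rose to 468 and 390 CPM with the mimic, against 368 and 286 CPM in the control. Its log2 fold change was 0.39 (edgeR, Benjamini-Hochberg adjusted p = 0.0302). The groups of HSPH1 did not overlap, so it did not have the order of FOS. The adjusted p of HSPH1 was 0.797 in DESeq2 and 0.0575 in edgeR without mimic library 1, where its log2 fold change was 0.25. RNA integrity numbers were above 9.5 in every sample, per the labels. Their part in the values of the immediate early genes was not tested.

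Single libraries decided whether members passed. Without mimic library 2, edgeR called FOS, IER3, JUN and JUNB higher, 4 of 37 members tested, where 0.5% of all genes tested were called higher. Without control library 1 it called 7 of 36 higher, where 1.81% of all genes were called higher, namely those 4 with DUSP1, NR4A1 and ZFP36L2. FOS then had a log2 fold change of 0.95 without mimic library 2 and 1.27 without control library 1 (edgeR, Benjamini-Hochberg adjusted p = 3.11e-06 and 1.2e-08). Without mimic library 1 the FOS value was 0.02, and without control library 2 it was 0.05. CCN2 showed the opposite dependence. It was called lower without mimic library 1, at -0.26, and without control library 2, at -0.21 (edgeR, Benjamini-Hochberg adjusted p = 0.0479 and 0.044), where 0.0261% and 0.0262% of all genes tested were called lower. DUSP1 had 0.10 when mimic library 1 was omitted, 0.03 when control library 2 was and 0.43 when control library 1 was, and NR4A1 lay below 0 in 1 omission, at -0.07 without control library 2. JUNB kept the sign of its value in each omission, from 0.29 without control library 2 to 0.58 without control library 1. So did FOS, IER3, JUN, DUSP1 and CCN2. In each of these fits the group left with 1 library was assumed to vary like the other.

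**Figure D4:**
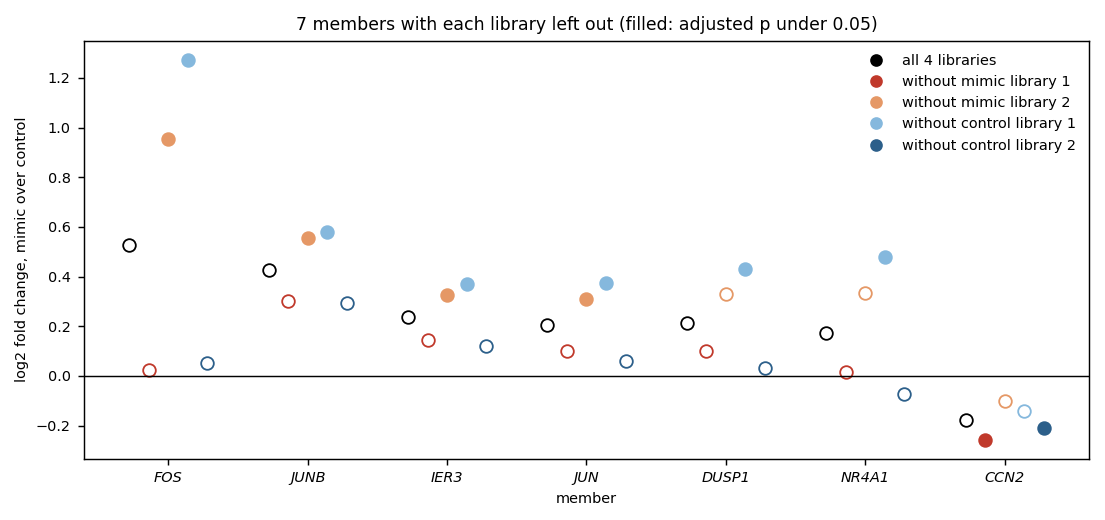
Log2 fold change of mimic over control (vertical axis) for FOS, JUNB, IER3, JUN, DUSP1, NR4A1 and CCN2 with all 4 libraries and with each library left out (colours), filled where the adjusted p was under 0.05. FOS lies between 0.02 and 1.27 depending on the library omitted, and CCN2 stays below 0 throughout.

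Promoter sequence is shown for FOS, JUN, JUNB, DUSP1 and EGR1, which share high values in mimic library 1, and for CCN2, whose values lay the other way. The sequences are the 250 bases before a transcription start, from RefSeq on GRCh38.p14, read 5′ to 3′ on the gene's strand. Capitals mark the motifs searched on both strands. In FOS, JUN and JUNB they mark TGACG, the core of the cAMP response element, in DUSP1 the whole element TGACGTCA and its core, in EGR1 the CArG box bound by SRF and the TGACG core, and in CCN2 the TEAD motif GGAATG.
FOS, chr14:75278578-75278827, plus strand: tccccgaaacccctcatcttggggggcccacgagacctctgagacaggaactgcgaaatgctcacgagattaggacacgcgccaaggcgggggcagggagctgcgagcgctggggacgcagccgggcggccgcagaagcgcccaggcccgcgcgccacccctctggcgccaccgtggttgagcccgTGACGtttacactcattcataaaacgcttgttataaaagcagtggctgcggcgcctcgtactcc
JUN, chr1:58784048-58784297, minus strand: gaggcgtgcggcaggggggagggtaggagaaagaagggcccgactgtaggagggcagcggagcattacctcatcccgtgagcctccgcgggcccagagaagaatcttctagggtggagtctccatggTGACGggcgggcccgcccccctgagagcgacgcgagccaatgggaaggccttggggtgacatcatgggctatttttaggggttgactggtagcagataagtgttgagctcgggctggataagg
JUNB, chr19:12791236-12791485, plus strand: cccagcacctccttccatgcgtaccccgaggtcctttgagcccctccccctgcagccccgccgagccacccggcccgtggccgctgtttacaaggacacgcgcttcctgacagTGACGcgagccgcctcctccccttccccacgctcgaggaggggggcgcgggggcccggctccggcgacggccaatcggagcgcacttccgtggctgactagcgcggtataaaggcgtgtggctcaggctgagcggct
DUSP1, chr5:172771196-172771445, minus strand: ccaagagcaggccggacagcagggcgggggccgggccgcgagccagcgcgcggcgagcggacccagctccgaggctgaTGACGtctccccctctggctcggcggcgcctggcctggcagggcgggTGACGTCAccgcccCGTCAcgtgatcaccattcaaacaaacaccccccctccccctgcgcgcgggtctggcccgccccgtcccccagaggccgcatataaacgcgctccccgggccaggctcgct
EGR1, chr5:138465229-138465478, plus strand: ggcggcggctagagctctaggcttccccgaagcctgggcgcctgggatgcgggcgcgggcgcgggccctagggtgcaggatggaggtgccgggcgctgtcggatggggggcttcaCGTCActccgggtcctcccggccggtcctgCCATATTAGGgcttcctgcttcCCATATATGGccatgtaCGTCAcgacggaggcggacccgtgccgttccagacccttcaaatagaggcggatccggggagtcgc
CCN2, chr6:131951373-131951622, minus strand: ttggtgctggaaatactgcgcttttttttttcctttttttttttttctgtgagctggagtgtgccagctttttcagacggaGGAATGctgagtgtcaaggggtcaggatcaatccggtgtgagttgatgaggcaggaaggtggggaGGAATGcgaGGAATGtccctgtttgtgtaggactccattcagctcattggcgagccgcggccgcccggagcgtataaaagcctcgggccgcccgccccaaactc
EGR1 had CArG boxes at 105 to 96 and 83 to 74 bases before its start, SRF had them at 30 to 21 and 10 to 1, and EGR2 at 71 to 62. These were 3 of 36 windows belonging to the 28 members with an entry, whereas 1.16% of 35116 windows over all genes held a CArG box. FOS had none in its window. Sequence beyond the 250 bases was not searched, so a missing match does not mean that a promoter lacks the site. DUSP1 had TGACGTCA at 125 to 118 bases before its start, and JUND, MAFF and ZFP36L1 held it too, 4 of 36 windows against 1.65% of all windows. The core TGACG, which lies within TGACGTCA, was in 19 of 36 windows against 21.2% of all, at 64 to 60 bases in FOS, 123 to 119 in JUN and 137 to 133 in JUNB. GGAATG was in 5 of 36 windows against 11.9% of all, and CCN2 held it at 169 to 164, 104 to 99 and 95 to 90 bases. The AP-1 site TGACTCA, which read on the other strand is TGAGTCA, the EGR site GCGTGGGCG and the ETS site CCGGAAGT had no match in the members' windows. They were in 4.2%, 0.72% and 3.42% of all windows. Only these exact strings were searched, and variant forms of the sites were not counted. TGACG and GGAATG were added to the search after the sequences were read. A match is a string of letters and not evidence of binding.

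Levels between members were compared per kilobase of exon per 1000000 reads (RPKM), with exon lengths from GENCODE 29. CCN2 was the most abundant at 180.3 and 162 RPKM with the mimic, against 198 and 188 RPKM in the control. ID1 followed with 134 and 139.9 RPKM with the mimic, against 139 and 152 RPKM in the control, a range that overlapped with IER3 at 156 and 138 RPKM with the mimic, against 135 and 114 RPKM in the control. ETV4, MCL1, MYC and JUND came next, with means over the 4 libraries between 79.3 and 97.2 RPKM. At the low end FOSB averaged 0.546 RPKM and DUSP4 0.567 RPKM. FOS, with 7.60 and 4.00 RPKM in the mimic libraries and 5.45 and 2.34 RPKM in the control libraries, was far below CCN2 in RPKM in each library.

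**Figure D5:**
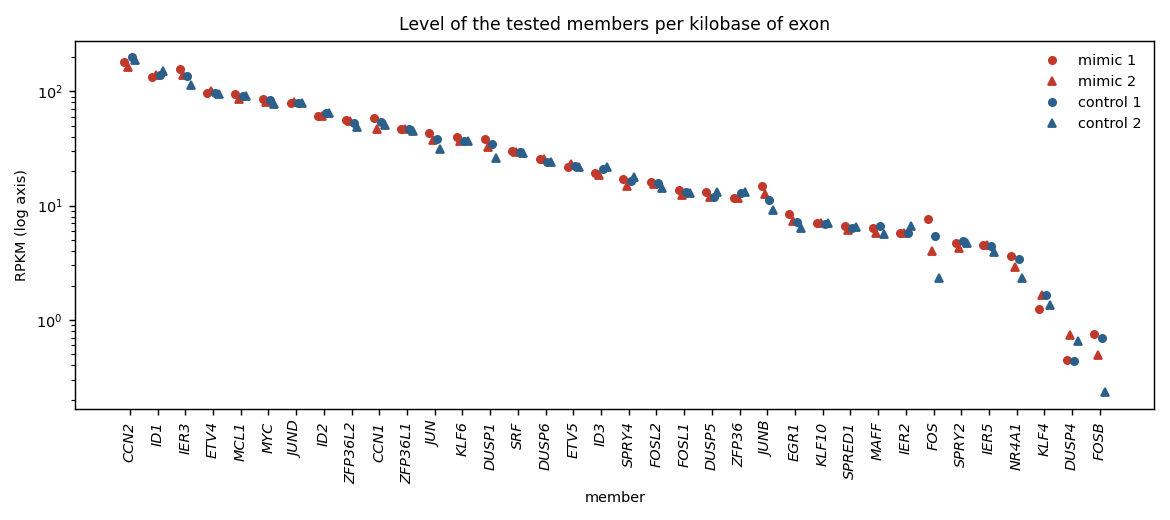
Level of the 36 tested members in RPKM (log axis) in each library, ordered by their mean over the 4 libraries, mimic in red and control in blue. CCN2, ID1 and IER3 are at the top, and KLF4, DUSP4 and FOSB at the bottom.

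Genes around the members mostly did not pass. Of 24 other immediate early genes 23 were tested and NFKBIA alone passed edgeR's test. NFKBIA, the NF-kB inhibitor, stood at 136 and 128 CPM with the mimic, against 111 and 104 CPM in the control (log2 fold change 0.30, edgeR, Benjamini-Hochberg adjusted p = 0.0291). Its call ended without mimic library 1 and without control library 2 (log2 fold changes 0.26 and 0.25, edgeR, Benjamini-Hochberg adjusted p = 0.24 and 0.135). Another 15 tested genes of ERK output and feedback held no call, and the ephrin receptor EPHA2 had the smallest p, with 287 and 266 CPM with the mimic, against 266 and 231 CPM in the control. The same was true of 7 tested EGF family ligands and receptors, where the ligand TGFA had 48.2 and 47.7 CPM with the mimic, against 40.7 and 39.2 CPM in the control. It also held for 22 tested genes of the cascade between RAS and ERK, with the kinase BRAF at 53.4 CPM in each mimic library and 50.3 and 44.2 CPM in the control. Medians of the log2 fold change in these 4 lists were 0.09, 0.08, 0.14 and 0.04. At an unadjusted edgeR p under 0.05 they held 5, 2, 3 and 3 genes with higher values, against 5.06% of all genes tested. Genes with lower values numbered 1, 0, 0 and 0, against 4.37%.

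The SRF and MRTF, YAP and TEAD, and SMAD lists, for pathways that also drive CCN and ID genes, had no call. Besides targets, they include the factors MRTFA, MRTFB, YAP1, WWTR1, TEAD1, TEAD4 and SMAD9 and the ligands TGFB1 and BMP4. Their medians and counts thus do not describe targets alone. The 14 tested genes of the SRF and MRTF list, mostly of the cytoskeleton, had a median log2 fold change of -0.07. At an unadjusted edgeR p under 0.05, 0 of them had higher and 5 had lower values, against 5.06% and 4.37% of all genes tested. ACTB, cytoplasmic actin, had 3060 and 3122 CPM with the mimic, against 3229 and 3458 CPM in the control. The 10 tested genes of the YAP and TEAD list had a median of 0.02. Among them the angiomotin AMOTL2 had 60.5 and 55.8 CPM with the mimic, against 52.0 and 44.8 CPM in the control. In this list 2 genes, AMOTL2 and WWTR1, had higher and 2 had lower values with the mimic at an unadjusted edgeR p under 0.05. The lower ones were AXL, a receptor tyrosine kinase with 42.6 and 46.2 CPM with the mimic, against 50.5 and 53.7 CPM in the control, and ANKRD1. ANKRD1 had 128 and 110.4 CPM with the mimic, against 124 and 150.3 CPM in the control, and its groups overlapped. The 11 tested genes of the SMAD list, for BMP and TGF-beta, had a median of 0.06. The 10 heat shock genes had a median of 0.07. At an unadjusted edgeR p under 0.05 the SMAD list held 2 higher and 1 lower, and the heat shock list 2 and 0. Log2 fold changes were above 0 in 16 of 23 other immediate early genes, 11 of 15 ERK output genes, 5 of 7 EGF family genes and 14 of 22 genes of the cascade between RAS and ERK. The same count was 3 of 14 in the SRF and MRTF list and 7 of 10 in the YAP and TEAD list. It was 6 of 11 in the SMAD list and 8 of 10 in the heat shock list, against 50.4% of all genes tested.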

How the data were processed

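Raw counts of reads per Ensembl gene were deposited by the authors, 1 column per library, with no normalization. The submitters' processing notes name HTSeq, STAR, Bowtie2 and FastQC and the build GRCh38.p14. The sources used here give no versions, annotation release or strand setting. Per the labels, libraries were poly(A)-selected from 500 ng of RNA with a stranded KAPA kit. Summary entries that name no gene held 23.1% to 24.1% of each library's total and were left out.

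Symbols came from a gene ID table (62590 of 62655 IDs matched). Counts were tested with edgeR 4.0.16 in R 4.3.3 (filterByExpr with minimum count 10 and total 15, TMM, glmQLFit with legacy = FALSE, glmQLFTest), with Benjamini-Hochberg adjustment over all 14464 genes tested and a threshold of 0.05. Log2 fold changes are mimic over control. Intervals use the F statistic and its degrees of freedom. An exact permutation test of 2 libraries against 2 cannot go below p = 0.333 and was not run. Libraries of a group differed beyond sampling noise (chi-square per degree of freedom 2.84 in the mimic, 3.66 in the control), and the common coefficient of biological variation was 5.12%.

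Members, lists and tests were chosen with earlier results of these data known. Values per library are given for the 14 members with the smallest p, those with the largest changes, those outside the filter, and the called or smallest-p gene of each list, of which 1 is not reported here; other values printed were chosen after they were seen. Alternatives were DESeq2 1.42.0, limma 3.58.1 voom, other scalings and filters, legacy = TRUE, a replicate block and each library left out.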

Additional observations from a re-analysis of the deposited data

How the results depend on the processing

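The median log2 fold change of the tested members stayed above 0 in all 12 alternatives run, between 0.01 and 0.06. No member was called with library totals, upper-quartile factors, no filter, a filter at a mean of 10 CPM, legacy = TRUE, limma voom or DESeq2, which gave an adjusted p to 21 members. DESeq2 called 30 genes in all and 1 gene of the pathway lists, against 50 and 2 with edgeR. Without the low-count filter edgeR passed 0 genes and 0 list genes, with 1514 genes at an unadjusted p under 0.05. Leaving out each library in turn gave 20 to 424 genes called, 1 to 7 members called, 20 to 29 members without overlap, where 66.8% to 73% of all genes tested had no overlap (13 members and 39.1% of all genes with all libraries), and 0 to 14 list genes called. The most genes, members and list genes were called with control library 1 omitted. Titles number the controls 3 and 4; columns 1 and 2 were the ones omitted.

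The titles share no replicate number between groups, but the column names do. Over all genes tested, deviations from group means correlated by 0.0234 between columns of the same number. That value does not describe single members, and whether column number affected them was not tested. The main fit used no pairing because the titles give none. With a replicate block by column number edgeR called 306 genes (1.43% of genes tested higher and 0.684% lower), 6 members (IER3, CCN2, FOS, JUN, JUNB and DUSP1) and 12 list genes. Counts under 15 reads in EGR2, EGR3, KLF2, NR4A2 and NR4A3 limit what can be said of them.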
